A study of Mus musculus with 12 samples.

Results

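Among the 55385 features of a liver RNA-Seq table, 58 protein-coding genes belong to the cytochrome P450 families 1 to 3, by gene symbols made of Cyp, the digit 1, 2 or 3, a subfamily letter and a number. Of these 58 genes, 42 reached a mean of 1 TPM (transcripts per 1000000) over the 12 mice and were tested, 11 were detected below that level and 5 (Cyp2b23, Cyp2j11, Cyp2j12, Cyp2t4 and Cyp2w1) were listed at 0 in every mouse. The name rule leaves out pseudogenes and a few genes named in another form, such as Cyp3a41a and Cyp3a41b.

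The livers came from wild-type male C57BL/6 mice, 7 weeks old, that had each received 500000000 pfu of adenovirus and were killed on day 7. Mice of the Ad-Ctrl group (control, n = 4) received the control viruses Lac and pAdV5, mice of the Ad-shmGULL group (knockdown, n = 4) a virus encoding an shRNA against the mouse long noncoding RNA mGULL together with pAdV5, and mice of the Ad-shmGULL+hGULL group (rescue, n = 4) the same shRNA virus with a virus expressing the human RNA hGULL. All 3 groups thus carried adenovirus, and an adenovirus given to the whole animal is not restricted to hepatocytes. The labels call the injection intravitreal, whereas the study's methods also describe a retro-orbital route. The comparisons ask which of these genes differ after mGULL loss and whether they differ when hGULL is supplied. The level of mGULL itself was not analysed here, so the knockdown was not checked in these values.

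Cytochrome P450 enzymes are heme proteins of the endoplasmic reticulum that insert an oxygen atom into lipophilic substrates with electrons passed on by P450 oxidoreductase (Por) and cytochrome b5. Families 1 to 3 oxidize drugs, carcinogens, steroids and fatty acids, and are most abundant in hepatocytes, mainly near the central vein. Their genes are switched by ligand-sensing factors, AHR for Cyp1 genes and the nuclear receptors CAR (Nr1i3) and PXR (Nr1i2) for many Cyp2b, Cyp2c and Cyp3a genes, and in mice several members differ between the sexes under the pattern of growth hormone release.

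The families arose by gene duplication, and the 2 members with the largest differences here, Cyp2b9 and Cyp2a4, each have a close copy on the same chromosome. On chromosome 7 the genes run in the order Cyp2s1, Cyp2b10, Cyp2b13, Cyp2b9, Cyp2a4, Cyp2b23, Cyp2b19, Cyp2g1, Cyp2a5, Cyp2a22, Cyp2a12, Cyp2f2 and Cyp2t4. The upstream 250 bases of 2 pairs from this cluster are shown because the members of each pair have nearly the same promoter and very different levels. They are RefSeq sequences of GRCm38.p6, all on the plus strand, 5′ to 3′ and ending at the base before the transcription start, with capitals at the bases that differ within the pair. The windows are chr7:26173159-26173408 for Cyp2b9, chr7:26061245-26061494 for Cyp2b13, chr7:26306942-26307191 for Cyp2a4 and chr7:26835089-26835338 for Cyp2a5.
Cyp2b9: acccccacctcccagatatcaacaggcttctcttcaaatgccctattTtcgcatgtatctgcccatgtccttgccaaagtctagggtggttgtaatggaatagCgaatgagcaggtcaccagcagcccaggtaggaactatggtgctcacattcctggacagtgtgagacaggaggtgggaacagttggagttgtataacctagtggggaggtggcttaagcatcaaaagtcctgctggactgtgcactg
Cyp2b13: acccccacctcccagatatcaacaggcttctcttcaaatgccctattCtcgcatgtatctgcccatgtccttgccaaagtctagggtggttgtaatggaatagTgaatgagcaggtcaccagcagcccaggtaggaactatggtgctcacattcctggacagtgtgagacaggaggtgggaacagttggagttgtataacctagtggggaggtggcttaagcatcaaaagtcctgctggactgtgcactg
Cyp2a4: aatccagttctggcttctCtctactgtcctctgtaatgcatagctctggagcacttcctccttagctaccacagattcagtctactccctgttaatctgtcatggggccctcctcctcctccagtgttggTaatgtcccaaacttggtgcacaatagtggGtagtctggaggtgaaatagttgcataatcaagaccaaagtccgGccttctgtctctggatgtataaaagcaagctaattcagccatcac
Cyp2a5: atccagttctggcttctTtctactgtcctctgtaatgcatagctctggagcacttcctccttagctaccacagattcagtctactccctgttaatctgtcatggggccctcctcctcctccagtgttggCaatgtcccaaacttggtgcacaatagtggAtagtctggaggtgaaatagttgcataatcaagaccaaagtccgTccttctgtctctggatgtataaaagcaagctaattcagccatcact
Cyp2b9 and Cyp2b13 differed at 2 of 250 bases, an identity of 99.2%. Cyp2a4 and Cyp2a5 differed at 4 of 249 aligned bases, an identity of 98.4%, with the Cyp2a5 window shifted by 1 base.

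Short motifs were searched on both strands of each promoter from 250 bases before to 50 after the start, in the 53 promoters that RefSeq lists for 50 members and in all 32851 promoters. The TATA box letters TATAAA were found in 49.1% of the member promoters and in 13.6% of all promoters. They lie at bases -28 to -23 of Cyp2a4 and -29 to -24 of Cyp2a5, and neither Cyp2b9 nor Cyp2b13 holds them in this window. The half-site AGGTCA read by nuclear receptors was found in 35.8% of member promoters and 16.3% of all, and lies at bases -138 to -133 of both Cyp2b9 and Cyp2b13. The C/EBP letters TTGCNNAA were found in 28.3% and 10.8%, and the D-box letters TTATGNAA of the PAR bZIP factors in 9.43% and 3.38%. In Cyp2a4 and Cyp2a5 these last 2 motifs are the same 8 bases on opposite strands, at -70 to -63 and -71 to -64. The growth hormone-linked STAT5 letters TTCNNNGAA were found in 3.77% of member promoters and 8.30% of all, and the xenobiotic response core GCGTG of AHR in 18.9% and 32.4%. Thus the Cyp2b9 and Cyp2b13 windows held the same matches, as did those of Cyp2a4 and Cyp2a5.

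**Figure D1:**
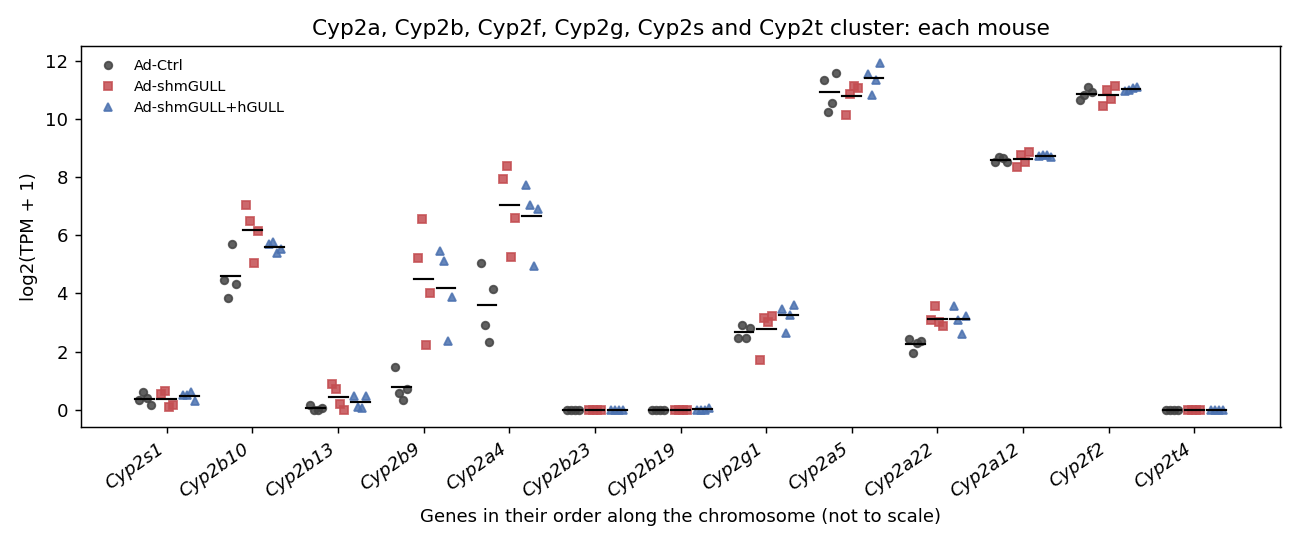
Level of each gene of the chromosome 7 cluster as log2(TPM + 1) (y axis) in its order along the chromosome (x axis, not to scale), with 1 point per mouse, 3 groups of 4 mice and a black line at each group mean. Cyp2b9 and Cyp2a4 were higher in the knockdown and rescue groups than in control, whereas Cyp2b13 stayed below 1 TPM in all 12 mice and Cyp2a5 was high in all 3 groups.

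Together the P450 members held 2.28% ± 0.2298 of the TPM total in control (SD over 4 mice), 2.45% ± 0.326 in knockdown and 2.53% ± 0.266 in rescue livers, and these groups overlapped. In bulk liver, fewer cells of a type and less RNA per cell cannot be told apart. Most of the sum came from few genes: Cyp2e1, which oxidizes ethanol and small solvents, ranged from 4561 to 7525 TPM over the 12 mice, and Cyp3a11, Cyp2a5, Cyp2f2, Cyp3a25, Cyp2c29, Cyp2d9 and Cyp1a2 came next, with Cyp1a2 at 911 to 1408 TPM. The lowest tested subfamily, Cyp2g, was summed to between 2.26 and 11.2 TPM. The Cyp2b subfamily, whose 5 genes include 2 tested ones, had the largest ratio between group sums, though at a low level. Its summed level was 13.9 to 50.9 TPM in control, 35.8 to 183 in knockdown and 45.2 to 94.6 in rescue mice.

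**Figure D2:**
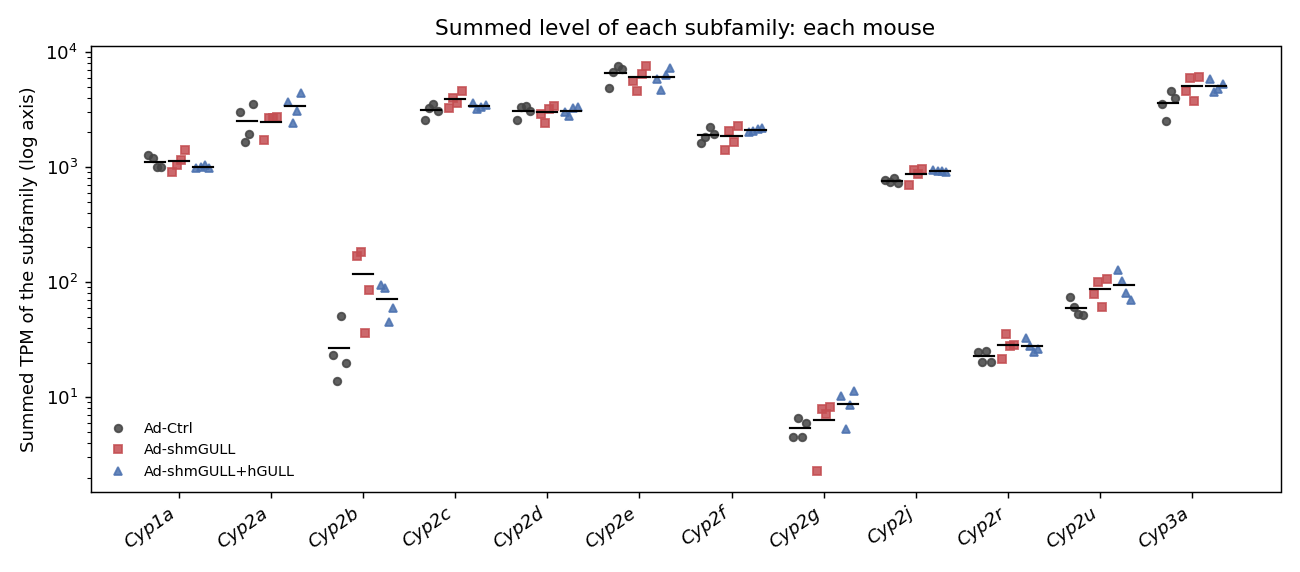
Summed TPM of each subfamily with at least 1 tested gene (y axis, log scale), with 1 point per mouse and a black line at each group mean. Cyp2b sums were 13.9 to 50.9 TPM in control and 35.8 to 183 TPM in knockdown mice, whereas the large Cyp2d and Cyp2e sums overlapped between all groups.

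After mGULL knockdown, 6 of the 42 tested members rose and 0 fell at an adjusted p under 0.05 (limma on log2(TPM + 1), Benjamini-Hochberg over all 16378 features tested): Cyp2b9, Cyp2a4, Cyp2c55, Cyp2c29, Cyp2c38 and Cyp2a22. That is 14.3% of the tested members, beside 2.44% of all features called higher and 0.794% called lower. At the study's threshold, which asks for more than 0.5 on the log2 scale and an unadjusted P under 0.05, 11 members (26.2%) were higher and 0 lower, beside 5.35% and 2.3% of all features. The 5 added by it are Cyp2b10, Cyp1a1, Cyp2c39, Cyp3a11 and Cyp2u1. In 7 members all 4 knockdown mice lay above all 4 control mice and in 0 below, beside 6.93% and 2.06% of all features. Of these 42 genes, only Cyp2b9 had a control mean below the filter of 1 TPM, so it entered the test through the other groups and had to differ. The median log2 fold change over the tested members was 0.12, beside 0.09 over all features, and 31 of the 42 passed neither rule. The 27 other tested P450 genes, of the remaining families and names, had 3 higher (11.1%) and 1 lower at an adjusted p under 0.05, 8 higher (29.6%) and 2 lower at the study's threshold and 5 (18.5%) with all knockdown mice above control.

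The adjusted calls depended on single mice. In place of 6, the number of members higher at an adjusted p was 0 without control mouse 2, control mouse 4 or knockdown mouse 2, 1 without knockdown mouse 4, 2 without rescue mouse 4 and 3 without control mouse 3 (Cyp2b10 among them) or rescue mouse 2. Over all features the calls also fell, from 399 to 126, 146, 127, 210, 257, 129 and 235 in the same order of mice. The number of members at the study's threshold was between 10 and 12 without any 1 mouse. Control mouse 2 had the lowest control value in 6 of those 11 genes, and knockdown mouse 2 the highest knockdown value in 6.

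**Figure D3:**
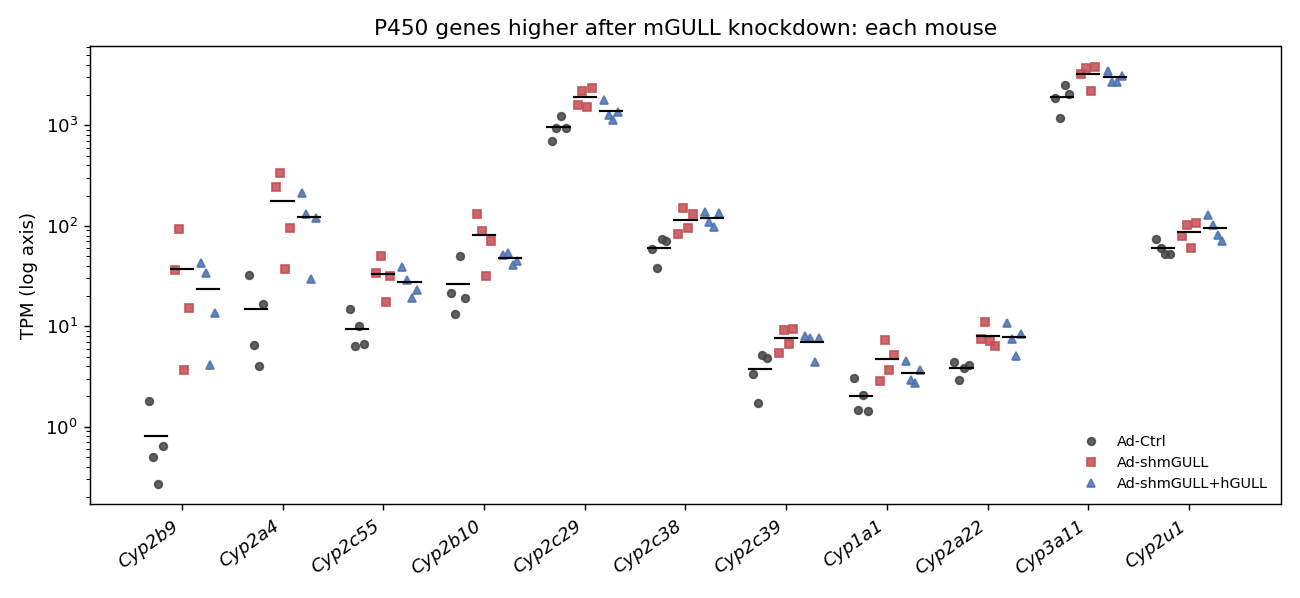
TPM (y axis, log scale) of the 11 members past the study's threshold in knockdown against control, ordered by log2 fold change, with 1 point per mouse and a black line at each group mean. Knockdown mice spread from 3.65 to 92.8 TPM in Cyp2b9 and from 37.1 to 332 TPM in Cyp2a4, above control maxima of 1.80 and 32.3 TPM.

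Cyp2b9, which is expressed more in female than in male mouse liver, had 1.80, 0.497, 0.272 and 0.644 TPM in control mice 1 to 4, 36.6, 92.8, 3.65 and 15.1 TPM in knockdown mice and 42.6, 33.9, 4.09 and 13.7 TPM in rescue mice. All 8 mice with the shRNA virus lay above all 4 control mice, and mouse 3 was the lowest of its group in control, knockdown and rescue alike. The knockdown mean was 46.2 times and the rescue mean 29.4 times the control mean. The log2 fold change was 3.72 ± 0.83 (SE) in knockdown (limma, adjusted p = 0.0332) and 3.42 ± 0.83 in rescue (adjusted p = 0.0508). With a control mean of 0.802 TPM, Cyp2b9 passed the filter of 1 TPM only through the knockdown and rescue mice. It therefore had to differ from control, and these p-values give no separate support for the difference. Rescue and knockdown mice overlapped, with a difference of -0.30 ± 0.83.

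Cyp2b10, the classical target of CAR, had 21.3, 13.4, 50.6 and 19.2 TPM in control, 131, 89.7, 32.0 and 70.4 TPM in knockdown and 51.6, 54.2, 41.1 and 45.0 TPM in rescue mice. Control mouse 3, at 50.6 TPM, lay among the shRNA mice, and knockdown mouse 3, at 32.0 TPM, lay among the controls. Its log2 fold change of 1.60 ± 0.41 passed the study's threshold in knockdown but not the adjustment (limma, adjusted p = 0.0531). In rescue the difference from control was 1.02 ± 0.41 (adjusted p = 0.151). Cyp2b13, another female-predominant gene, was too low to be tested, at 0.120, 0, 0 and 0.0429 TPM in control, 0.863, 0.629, 0.143 and 0 TPM in knockdown and 0.394, 0.0730, 0.0353 and 0.391 TPM in rescue mice. Its 2 highest values were those of knockdown mice 1 and 2, also the highest knockdown mice for Cyp2b9. Its coding sequence is 92.7% identical to that of Cyp2b9, and 5.0% of the 75-base windows of Cyp2b9 occur in another Cyp gene.

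Among the 4 Cyp2a genes, which encode coumarin and steroid hydroxylases, Cyp2a4 changed most. This female-predominant steroid 15α-hydroxylase had 32.3, 6.58, 4.06 and 16.6 TPM in control, 246, 332, 37.1 and 95.7 TPM in knockdown and 210.1, 132, 29.6 and 119 TPM in rescue mice. Knockdown mice all lay above control mice, by the narrow gap between 32.3 and 37.1 TPM, and rescue mouse 3 fell within the control range. Again mouse 3 was the lowest of each group, and the knockdown mice had the same order in Cyp2a4 as in Cyp2b9. The log2 fold change was 3.43 ± 0.77 in knockdown (limma, adjusted p = 0.0360) and 3.04 ± 0.77 in rescue (adjusted p = 0.0559).

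Cyp2a5, the coumarin 7-hydroxylase, is the near-identical copy of Cyp2a4, with Cyp2b23, Cyp2b19 and Cyp2g1 between them, and was far more abundant. It had 2578, 1219.5, 1523 and 3106 TPM in control, 1141, 1876, 2272 and 2141 TPM in knockdown and 3034, 1834, 2603 and 3889.8 TPM in rescue mice. The 3 groups overlapped, with log2 differences from control of -0.13 ± 0.32 in knockdown and 0.48 ± 0.32 in rescue. The coding sequences of the pair are 98.4% identical, and 23.2% of the 75-base windows of Cyp2a4 also occur in Cyp2a5. How reads with several placements were counted is not given in the sources used here, so the split between them is uncertain. Knockdown mouse 1, the lowest of its group for Cyp2a5, was the next to highest for Cyp2a4. Knockdown mouse 3, the highest for Cyp2a5, was the lowest for Cyp2a4. In control, by contrast, mice 1 and 4 lay above mice 2 and 3 for both genes. Rescue mouse 4 was the highest of its group for Cyp2a5 and rescue mouse 1 for Cyp2a4. Whether the 2 genes shared reads was not tested.

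Cyp2a22 and Cyp2a12 form another such pair, with coding sequences 97.0% identical and 16.3% of windows shared. Cyp2a22 had 4.44, 2.91, 3.87 and 4.11 TPM in control, 7.45, 10.9, 7.09 and 6.35 TPM in knockdown and 10.8, 7.45, 5.03 and 8.29 TPM in rescue mice. All shRNA mice lay above all control mice, and the log2 fold change was 0.88 ± 0.20 in knockdown (limma, adjusted p = 0.0399) and 0.85 ± 0.20 in rescue (adjusted p = 0.0507). Cyp2a12, a more abundant gene with means of 389 TPM in control and 397 TPM in knockdown, differed by 0.02 ± 0.10. In rescue its 4 mice lay above the controls by a log2 difference of 0.14 ± 0.10, which passed neither rule.

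The Cyp2c genes, on chromosome 19, encode enzymes for drugs, retinoids and arachidonic acid. Of 15 members 13 were tested, and 4 passed the study's threshold in knockdown, all higher. That stands beside 26.2% of all tested members and 5.35% of all features called higher, and 2.3% of all features called lower. Cyp2c55, a target of CAR and PXR, had 15.0, 6.31, 9.96 and 6.70 TPM in control, 34.1, 49.8, 17.5 and 32.0 TPM in knockdown and 38.9, 28.8, 19.3 and 23.1 TPM in rescue mice. The shRNA mice all lay above the controls. Its log2 fold change was 1.70 ± 0.32 in knockdown (limma, adjusted p = 0.0181) and 1.47 ± 0.32 in rescue (adjusted p = 0.0426), and it shared 0 of its 75-base windows with any other Cyp gene. It was called at an adjusted p under 0.05 in 9 of the 12 fits without 1 mouse, the most of any member.

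Cyp2c29, an abundant CAR target, had 705, 947, 1243 and 947 TPM in control, 1577, 2219.9, 1523 and 2335 TPM in knockdown and 1791, 1260.2, 1131 and 1359 TPM in rescue mice. Knockdown mice lay above all controls, while rescue mice overlapped both groups. It rose in knockdown by 0.996 ± 0.20 on the log2 scale (limma, adjusted p = 0.0237), and the difference of rescue from control was 0.53 ± 0.20 (adjusted p = 0.134). It was also the 1 member with an unadjusted P under 0.05 between rescue and knockdown, at -0.46 ± 0.20 (limma, adjusted p = 0.446).

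Cyp2c38 had 58.7, 38.2, 74.7 and 70.9 TPM in control, 83.0, 149, 95.9 and 130.1 TPM in knockdown and 138, 109.7, 98.4 and 133 TPM in rescue mice. The shRNA mice of both groups lay above the controls. Its log2 fold change was 0.91 ± 0.22 in knockdown (limma, adjusted p = 0.0452) and 1.003 ± 0.22 in rescue (adjusted p = 0.0441). Cyp2c39, a female-predominant retinoic acid hydroxylase, had 1.73 to 5.14 TPM in control, 5.40 to 9.33 TPM in knockdown and 4.37 to 8.02 TPM in rescue mice. Its log2 difference from control was 0.91 ± 0.26 in knockdown (limma, adjusted p = 0.0776) and 0.78 ± 0.26 in rescue (adjusted p = 0.105), past the study's threshold in both.

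The other 9 tested Cyp2c genes passed neither rule. Cyp2c68 had a mean of 76.2 TPM in control and 96.0 TPM in knockdown, a log2 difference of 0.34 ± 0.14 (limma, adjusted p = 0.195). The CAR and PXR targets Cyp2c37, Cyp2c50 and Cyp2c54, which oxidize arachidonic acid, had log2 differences of -0.13 ± 0.19, -0.42 ± 0.24 and -0.51 ± 0.28 in knockdown. In rescue their differences were -0.05 ± 0.19, -0.53 ± 0.24 and -0.55 ± 0.28. The female-predominant Cyp2c40 and Cyp2c69 ranged from 1.03 to 6.23 and from 1.12 to 4.18 TPM over the 12 mice and differed in knockdown by -0.29 ± 0.39 and -0.16 ± 0.32. Of their 75-base windows 64.9% and 48.5% occur in another Cyp gene, so their separate levels are uncertain. Cyp2c70, a bile acid hydroxylase, differed by -0.17 ± 0.14 and Cyp2c23, an arachidonic acid epoxygenase, by -0.07 ± 0.17.

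In the Cyp3a subfamily, on chromosome 5, 6 of 7 members were tested. Cyp3a11, the main PXR target and steroid 6β-hydroxylase of male mouse liver, had 1868, 1195, 2547 and 2034 TPM in control, 3236, 3711, 2206 and 3831 TPM in knockdown and 3495, 2695, 2712 and 3119 TPM in rescue mice. Knockdown mouse 3 lay within the control range, and rescue mice lay above all controls. The log2 fold change was 0.78 ± 0.23 in knockdown (limma, adjusted p = 0.0776) and 0.70 ± 0.23 in rescue (adjusted p = 0.0984), past the study's threshold in both. Cyp3a16 and Cyp3a44, both female-predominant and below 6 TPM in every mouse, differed from control by 0.36 ± 0.21 and 0.39 ± 0.19 in knockdown. In rescue they differed by 0.61 ± 0.21 and 0.51 ± 0.19 and passed the study's threshold, as did Cyp3a59 at 0.58 ± 0.23. Cyp3a25 (0.13 ± 0.19 in knockdown) and the PXR target Cyp3a13 (-0.27 ± 0.14) passed in neither.

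Cyp1a1, the classical AHR target, was low, at 3.02, 1.46, 2.07 and 1.44 TPM in control, 2.83, 7.27, 3.66 and 5.18 TPM in knockdown and 4.48, 2.95, 2.73 and 3.68 TPM in rescue mice. Only control mouse 1 reached the range of the shRNA mice. The log2 fold change of 0.90 ± 0.24 in knockdown passed the study's threshold but not the adjustment (limma, adjusted p = 0.0616), and in rescue it was 0.59 ± 0.24 (adjusted p = 0.160). Cyp1a2, the caffeine-oxidizing AHR target next to it on chromosome 9, overlapped between all groups, with a knockdown difference of -0.0019 ± 0.13. Cyp1b1, a further AHR target, stayed at or below 1.22 TPM and was not tested. Cyp2u1, a fatty acid omega-hydroxylase, had 52.1 to 73.8 TPM in control, 60.8 to 107 TPM in knockdown and 69.8 to 128 TPM in rescue mice, with log2 differences of 0.51 ± 0.21 (limma, adjusted p = 0.188) and 0.64 ± 0.21 (adjusted p = 0.0966). It passed the study's threshold in both but kept it in 13 of 18 alternative fits in knockdown.

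The remaining subfamilies showed no called difference in knockdown. The 7 tested Cyp2d genes, led by the male-predominant steroid 16α-hydroxylase Cyp2d9, differed from control by between -0.09 and 0.27 on the log2 scale in knockdown and between -0.22 and 0.22 in rescue. Cyp2d9 itself had 1159 to 1397 TPM in control, 945 to 1459.7 TPM in knockdown and 1145 to 1443 TPM in rescue mice. The differences in knockdown were -0.12 ± 0.20 for Cyp2e1, -0.06 ± 0.15 for Cyp2f2, which bioactivates naphthalene, 0.11 ± 0.31 for Cyp2g1, 0.29 ± 0.14 for the vitamin D 25-hydroxylase Cyp2r1 and 0.15 ± 0.10 for Cyp2j5, an arachidonic acid epoxygenase. Cyp2j6 differed by 0.39 ± 0.16 in knockdown and passed the study's threshold in rescue at 0.53 ± 0.16 (limma, adjusted p = 0.0882).

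**Figure D4:**
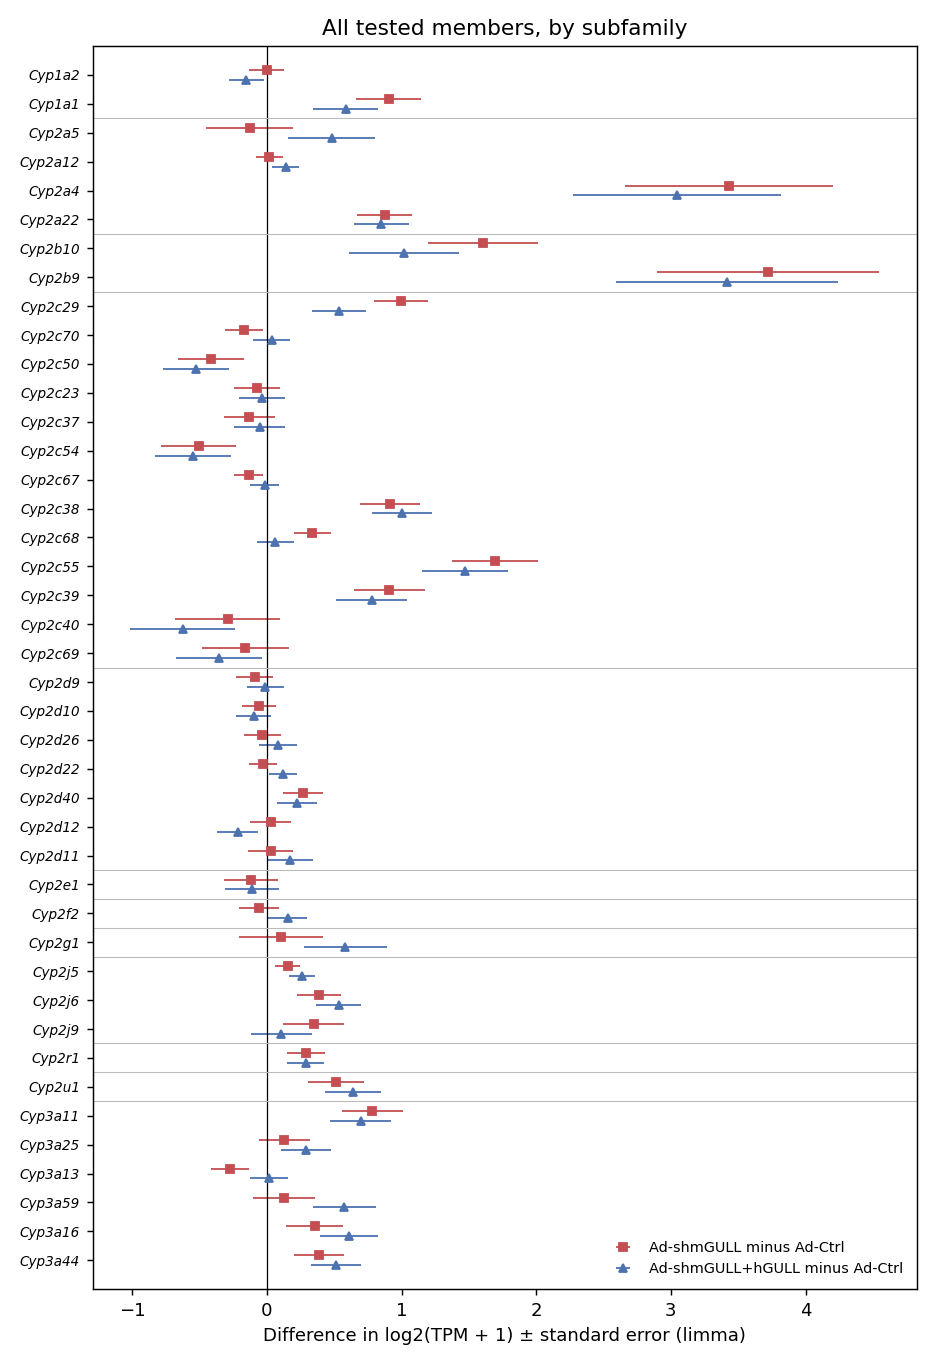
Difference from control in log2(TPM + 1) with its standard error from limma (x axis) for each of the 42 tested members (y axis, by subfamily), for knockdown (squares) and rescue (triangles). Both comparisons use the same 4 control mice, and the largest values in both are those of Cyp2b9 (3.72 and 3.42) and Cyp2a4 (3.43 and 3.04).

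Between rescue and knockdown, no member passed either rule. By limma, 0 of 42 members were called at an adjusted p under 0.05 and 1, Cyp2c29, at an unadjusted P under 0.05, while over all features 0 were called higher (0.0%) and 0 lower (0.0%) and 1757 had an unadjusted P under 0.05. At the study's threshold 0 members were higher and 0 lower, beside 2.33% and 0.672% of all features, and 0 members had non-overlapping groups, beside 5.4% above and 0.983% below. The largest differences were 0.61 ± 0.32 for Cyp2a5 and -0.58 ± 0.41 for Cyp2b10. For Cyp2b9 and Cyp2a4 the standard errors of 0.83 and 0.77 mean that even a difference of 1 on the log2 scale was not detectable.

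Against control, rescue livers had 2 members higher at an adjusted p under 0.05 (limma), Cyp2c55 and Cyp2c38, that is 4.76% of the tested members beside 2.12% of all features. At the study's threshold 15 members (35.7%) were higher and 0 lower, beside 6.84% and 0.641% of all features, and in 10 members all 4 rescue mice lay above all 4 controls and in 1, Cyp2d12, below, beside 21.4% and 0.855%. Members whose groups did not overlap were thus close to the background. All features shifted upward in this comparison, by a median of 0.17, and the median over the tested members was 0.20. After scaling by the median of ratios, which brought the median of all features to -0.0059, 6 members remained higher at the study's threshold (Cyp2b9, Cyp2a4, Cyp2c55, Cyp2c38, Cyp2a22 and Cyp2c39) and 2 were lower (Cyp2c50 and Cyp2c54), beside 477 higher and 242 lower of 16338 features. With that scaling 10 members were higher and 0 lower in knockdown against control, beside 606 and 572 of 16338 features. The count of 15 also fell to 8 without control mouse 2 and to 9 without rescue mouse 1. Over all features the count fell from 1121 to 784 and 908 in these fits. The knockdown and rescue comparisons share the control mice.

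Counted by regulator, lists compiled from general knowledge, but with earlier results of these data known, gave the following. They are thus not independent of these values. Of 10 tested CAR and PXR targets among the members, 5 were past the study's threshold in knockdown, all higher, beside 26.2% of all tested members and 5.35% of all features (Cyp2b9, which passed the filter through the groups where it is high, Cyp2b10, Cyp2c29, Cyp2c55 and Cyp3a11), and 5 had negative log2 differences that passed neither rule (Cyp2c37, Cyp2c50, Cyp2c54, Cyp3a13 and Cyp2a5). The median of the 10 was 0.33. Among 12 CAR and PXR targets outside the P450s, 1 was higher in knockdown at that threshold and the median was 0.12. That gene, Abcb1a, a drug efflux pump, had 1.94 to 4.92 TPM in control, 5.32 to 9.93 TPM in knockdown and 8.39 to 11.3 TPM in rescue mice, and rose in rescue by 1.28 ± 0.23 (limma, adjusted p = 0.0381).

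Of 7 tested female-predominant members 3 were higher at the study's threshold in knockdown (Cyp2a4, Cyp2b9 and Cyp2c39). That stands beside 26.2% of all tested members and 5.35% of all features. Cyp2b9 passed the filter through the groups where it is high. In rescue 5 were higher (also Cyp3a16 and Cyp3a44), beside 35.7% of all tested members and 6.84% of all features. Cyp2c40 and Cyp2c69 passed in neither comparison. With median-of-ratios scaling Cyp3a16 and Cyp3a44 no longer passed in rescue. The male-predominant list held 1 member, Cyp2d9, which did not differ by either rule. This 1 gene cannot stand for male-predominant genes as a set, and P450 genes of other families were not listed by sex. Beside 2.3% of all features, 2 of 9 tested genes of the growth hormone axis were lower at the study's threshold in knockdown. Of these, Igf1, the liver's main growth hormone-induced secreted factor, was lower in knockdown by -0.89 ± 0.16 (limma, adjusted p = 0.0139), with 161 to 209 TPM in control, 72.1 to 124 TPM in knockdown and 116 to 150 TPM in rescue mice. Of 2 tested AHR targets among the members Cyp1a1 passed the study's threshold, and of 3 tested AHR targets outside the P450s 0 did.

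No gene of the receptors and their partners was called higher. Nr1i3 (CAR) had 152 to 271 TPM in control, 152 to 252 TPM in knockdown and 159 to 285 TPM in rescue mice, and Nr1i2 (PXR) 119 to 122, 121 to 153 and 106 to 133 TPM. Ahr had 47.9 to 65.4 TPM in control, 25.0 to 49.2 TPM in knockdown and 43.5 to 56.6 TPM in rescue mice, and was lower in knockdown at the study's threshold by -0.59 ± 0.19 (limma, adjusted p = 0.0994). Of 14 tested receptors and partners this was the 1 gene past that threshold. Transcript levels do not measure receptor activity.

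Of 17 genes that supply electrons and heme to P450s, 3 rose in knockdown (limma, adjusted p under 0.05) and 0 fell, beside 2.44% and 0.794% of all features. Cyb5b, the cytochrome b5 of the outer mitochondrial membrane, rose by 0.64 ± 0.13 (adjusted p = 0.0256) from 255 to 325 TPM in control to 391 to 595 TPM. Cyb5r3, the cytochrome b5 reductase, rose by 0.55 ± 0.13 (limma, adjusted p = 0.0373), and Pgrmc2, a heme-binding membrane protein, by 0.53 ± 0.10 (adjusted p = 0.0148). Por did not differ, at 446 to 591 TPM in control, 454 to 657 TPM in knockdown and 409 to 637 TPM in rescue mice.

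Other gene lists moved with the knockdown group. The 6 hepatocyte markers were expressed in every mouse, summing to 71669.7 to 106990.0 TPM in control, 76622 to 90787 TPM in knockdown and 64052 to 77659.9 TPM in rescue mice. At the study's threshold 2 of the 6 were lower in knockdown and in rescue, beside 2.3% and 0.641% of all features. These 2 were Apoa1, an HDL apolipoprotein, by -0.60 ± 0.20 in both and Tat, a tyrosine-degrading aminotransferase, by -0.80 ± 0.28 and -0.81 ± 0.28. Of 15 interferon response genes 13 were lower at the study's threshold in knockdown, beside 2.3% of all features. At an adjusted p under 0.05 (limma) 4 of them were lower, beside 0.794% of all features (Ifit1 by -1.33, Isg15 by -1.11, Rsad2 by -0.90 and Ifi44 by -0.90). The sum of the 15 genes was 890 to 1450 TPM in control, 625 to 973 TPM in knockdown and 905 to 1209 TPM in rescue mice. In rescue against control 0 of the 15 passed that threshold. The summed level of 14 acute phase genes was 14705 to 18179.9 TPM in control, 11964 to 13967 TPM in knockdown and 13424 to 13642 TPM in rescue mice, with 1 gene past the study's threshold in knockdown, lower. Of 10 periportal genes 4 were lower and 1 higher at that threshold in knockdown, beside 2.3% and 5.35% of all features. The higher gene, Sox9, is also on the cholangiocyte list. The periportal sums were 10084 to 13195 TPM in control, 7379 to 10038 TPM in knockdown and 8018 to 10586 TPM in rescue mice. Of 10 pericentral genes 1 was higher at that threshold in knockdown. In rescue the periportal lipid droplet enzyme Hsd17b13 rose by 0.47 ± 0.10 (limma, adjusted p = 0.0426). The part of the hepatocyte, interferon, acute phase and zonal lists in the P450 differences was not tested.

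Markers of other liver cells were read in the same way. Of 6 endothelial markers Stab2, the hyaluronan scavenger receptor of sinusoidal cells, rose in knockdown by 0.54 ± 0.13 (limma, adjusted p = 0.0476). All 6 had positive differences with a median of 0.39, beside 65.5% of all features and their median of 0.09. The list summed to 108 to 187 TPM in control, 172 to 239 TPM in knockdown and 174 to 209 TPM in rescue mice. At the study's threshold in knockdown against control, 1 of 8 Kupffer cell markers (Marco) was lower and 1 of 4 tested cholangiocyte markers (Sox9) higher, and 0 of 7 stellate, 8 tested T and NK cell, 3 tested B cell and 4 neutrophil markers passed. In rescue against knockdown the neutrophil genes S100a8 (-0.78 ± 0.31) and S100a9 (-0.84 ± 0.30) were lower and the cytotoxic granule gene Gzmb (1.03 ± 0.39) higher at that threshold. Among 13 tested clock and PAR bZIP genes, Cry1, a repressor of the clock, was higher in knockdown by 0.93 ± 0.12 (limma, adjusted p = 0.00677) and in rescue by 0.75 ± 0.12 (adjusted p = 0.0345), and the D-box factors Dbp and Tef passed neither rule. The hour at which each mouse was killed is not given in the sources used here, and the part of these lists in the P450 differences was not tested.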

How the data were processed

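Liver RNA was measured by strand-specific RNA-Seq in 12 mice. Per the study's methods, the authors trimmed reads with fastp 0.23.2, checked them with FastQC 0.11.8, aligned them with HISAT2 2.2.1.0 to GRCm38.p6 and counted them on GENCODE VM24 genes; the submitters' processing notes also name featureCounts of Subread 2.0. The deposited values are TPM, summing to 1000000 per mouse, so depth is unknown and no interval needing it is given. Samples were grouped by their titles.

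Values were analysed as log2(TPM + 1) with limma 3.58.1 in R 4.3.3, for features with a mean of at least 1 TPM, in 1 model of 3 groups with moderated variances, a mean-variance trend and Benjamini-Hochberg adjustment. This scale understates changes of low genes. P-values are two-sided and measure the spread between these mice. In simulated data 74.0% of changes of 1 and 94.4% of changes of 2 on the log2 scale were found in knockdown against control among 16378 features, with 5.28% false calls. The simulated noise was normal, independent between features and equal in spread across groups. It held no shift shared by many genes of 1 mouse, so these shares need not hold for the P450 members. Coding sequences came from GENCODE vM39, and promoters from RefSeq. Sequences and figures used Python 3.11.15, Biopython 1.88 and matplotlib 3.10.9.

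The members and lists were chosen with earlier results of these data known. Named were members past either rule, the highest member of each tested subfamily, members of the regulator and sex lists, listed genes with an adjusted p under 0.05, and Nr1i3, Nr1i2, Ahr and Por; the other genes named were chosen after their values were seen. Alternatives were a pseudocount of 0.1, no filter, median-of-ratios scaling, only the 2 groups compared, array weights, a replicate block and leaving out each mouse. No sample was left out.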

Additional observations from a re-analysis of the deposited data

Results flagged for a closer look

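In 87 sets of 4 mice (named member and group), 2 had 1 mouse set far apart from the other 3 by Dixon's test at the 95% level, which chance gives in about 1 set of 20. Cyp2c39 was 4.37 TPM in rescue mouse 3, below the 8.02, 7.72 and 7.66 TPM of the others. Rescue mouse 3 was also the lowest of its group for Cyp2b9, Cyp2a4, Cyp2a22, Cyp2b10, Cyp2c29, Cyp2c38 and Cyp2c55. Cyp2c69 was 2.48 TPM in rescue mouse 1, above the 1.32, 1.36 and 1.29 TPM of the others. This gene shares 48.5% of its 75-base windows with other Cyp genes.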

How the results depend on the processing

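Of 15 counts and medians over the members, each set against its value as reported, 215 alternative values stayed within the limits set and 55 did not; no named gene changed its direction past a threshold. In knockdown against control, the 6 members higher at an adjusted p became 1 without the filter, 0 with only the 2 groups compared and 0 to 8 without 1 mouse, and the 0 lower at the study's threshold became 0 to 2 without 1 mouse. The 399 of all features higher at an adjusted p there became 180, 27 and 126 to 812 in these fits. In rescue against knockdown, the 0 higher at the study's threshold became 1 with only the 2 groups and 0 to 1 without 1 mouse, and the 0 lower became 1 with median-of-ratios scaling, 1 with array weights and 0 to 2 without 1 mouse. In rescue against control, the 2 higher at an adjusted p became 4 with a pseudocount of 0.1, 0 without the filter, 0 with median-of-ratios scaling, 7 with only the 2 groups, 13 with array weights and 0 to 7 without 1 mouse, and the 0 lower became 1 with array weights. The 15 higher at the study's threshold became 6 with median-of-ratios scaling and 8 to 16 without 1 mouse, and the 0 lower became 2 with that scaling, 2 with only the 2 groups, 2 with array weights and 0 to 2 without 1 mouse. The 1121 of all features higher at that threshold became 477 with that scaling and 784 to 1571 without 1 mouse. The median over the tested members moved from 0.20 to 0.028 with that scaling, as did the median of all features, and in knockdown against control it was 0.035 to 0.25 without 1 mouse, in rescue against knockdown -0.027 to 0.10 and in rescue against control 0.13 to 0.29. Except for the scaling, the cause was not tested.

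Over all tested features, deviations of same-numbered mice from their group means correlated by between -0.24 and 0.15. Those of differently numbered mice correlated by between -0.18 and 0.17. The main fit therefore did not treat the numbers as pairs. This check does not tell whether same-numbered mice shared a batch. With a replicate block, 1 member (Cyp2c54) was lower at the study's threshold in knockdown, 1 (Cyp2a5) higher in rescue against knockdown and 2 (Cyp2c50 and Cyp2c54) lower in rescue against control, each 0 without it, and 4 in place of 6 were higher at an adjusted p in knockdown.

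Precision is limited by 4 mice per group, by the unknown depth, and by reads that near-identical copies could share: 15 of the 58 coding sequences are over 95% identical to another member, and 9 share over 20% of their 75-base windows with another Cyp gene. In knockdown, Cyp2c55 and Cyp2c29 were called at an adjusted p in 9 and 8 of the 12 fits without 1 mouse, and Cyp2b9, Cyp2a4, Cyp2a22 and Cyp2c38 in 5, 4, 4 and 2.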

Other observations

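Genes of the same families that the name rule leaves out were also read, and those given here were chosen after their values were seen. Cyp3a41b, a female-predominant testosterone hydroxylase gene, was 7.51 TPM in control mouse 1 and 8.49 TPM in rescue mouse 2 and between 0.117 and 0.504 TPM in the other 10 mice. Its near copy Cyp3a41a stayed between 0.0321 and 0.442 TPM in all 12. Control mouse 1 was also the highest control mouse for the female-predominant Cyp2b9, Cyp2a4, Cyp2b13, Cyp2c40, Cyp2c69 and Cyp3a16, but not for Cyp2c39 and Cyp3a44. Rescue mouse 2 was the highest rescue mouse for Cyp3a16 (5.90 TPM) and Cyp2c40 (3.26 TPM), but not for the other female-predominant members, Cyp2b9 and Cyp2a4 among them. Whether these genes vary together was not tested.

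The pseudogene Cyp2d37-ps was read at 253 to 287 TPM in control, 226 to 335 TPM in knockdown and 261 to 329 TPM in rescue mice, above the means of 4 of the 7 tested Cyp2d genes counted as coding, and its groups overlapped. Cyp2d36-ps was read at 69.1 to 79.1, 45.2 to 95.1 and 63.1 to 107.9 TPM.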
